A study of Mus musculus with 26 samples.

Results

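Voltage-gated sodium channel subunit genes were followed through striatal RNA-seq of 2 mouse models of Huntington's disease. The 8 genes were taken by symbol from all 5 deposited tables, which together list 14833 genes: the alpha subunits Scn1a, Scn2a1, Scn3a, Scn8a and Scn9a and the beta subunits Scn2b, Scn3b and Scn4b. They were chosen by family and with their group FPKM values and fold changes in these tables already known, so the values below describe them and test nothing about the choice. R6/1 mice carry a transgene of the first exon of human huntingtin with an expanded repeat, driven by the human promoter, and CHL2 mice are a huntingtin knock-in line. The 26 libraries of total RNA form 9 groups. R6/1 and wild-type mice were compared at 4 weeks and again at 8 weeks, and CHL2 and wild-type mice at 1 year, with 3 libraries in each of these 6 groups. At 10 weeks there were 4 libraries from R6/1 mice given an adeno-associated virus (AAV) with Elk-1, 2 from R6/1 mice given control AAV and 2 from wild-type mice given control AAV. All animals of the 10-week groups thus carried a vector, and the row labels of the tables call the control vector mCherry. The sources used here do not give the promoter of the vectors, the strain background, or whether libraries came from separate animals.

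A neuronal sodium channel is built around 1 pore-forming alpha subunit, which opens on depolarization and carries the inward current of the action potential. Beta subunits are small membrane proteins with an immunoglobulin domain that change the gating and surface level of the alpha subunit and act in cell adhesion. The beta subunit encoded by Scn4b is abundant in striatal projection neurons, where its cytoplasmic tail is linked to the resurgent sodium current. Scn2a1 and Scn8a encode the main alpha subunits of axon initial segments of principal neurons, Scn1a that of fast-spiking interneurons, and Scn3a one that is most abundant in the developing brain. Scn9a encodes an alpha subunit best known from sensory neurons and also found in hypothalamic neurons.

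Most of the members lie in 2 blocks of the mouse genome, given here as the tables list them on mm9. On chromosome 2 the order is Scn3a (chr2:65295174-65405549), Scn2a1 (chr2:65508501-65605504), Scn1a (chr2:66108838-66278894), Scn9a (chr2:66278936-66473009) and Scn7a (chr2:66511482-66622967), with 41 bases between the listed ends of Scn1a and Scn9a. On chromosome 9, Scn2b (chr9:44887265-44943689) and Scn4b (chr9:44947124-44962144) are listed 3434 bases apart, and Scn3b (chr9:40076800-40099203) lies farther off. Scn8a is on chromosome 15 (chr15:100701113-100876360). Listed spans hold exons and introns and need not match the limits of a gene. Scn9a spans 194074 bases as listed and 155035 in RefSeq on GRCm38, and Scn2a1 97004 as listed and 146684 in RefSeq. Gaps between listed ends may therefore not be gaps between genes.

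The promoter windows of both neighbours on chromosome 9 and of Scn9a are printed because Scn4b and Scn9a were the members whose differences passed the authors' threshold, while Scn2b, next to Scn4b, did not. Each window runs from 250 bases before to 50 bases after the RefSeq start on GRCm38.p6, 5′ to 3′ on the strand of the gene, and capitals mark CG dinucleotides. Scn4b is on the plus strand at chr9:45138374-45138673, Scn2b on the plus strand at chr9:45117626-45117925, and Scn9a on the minus strand at chr2:66634913-66635212.
Scn4b: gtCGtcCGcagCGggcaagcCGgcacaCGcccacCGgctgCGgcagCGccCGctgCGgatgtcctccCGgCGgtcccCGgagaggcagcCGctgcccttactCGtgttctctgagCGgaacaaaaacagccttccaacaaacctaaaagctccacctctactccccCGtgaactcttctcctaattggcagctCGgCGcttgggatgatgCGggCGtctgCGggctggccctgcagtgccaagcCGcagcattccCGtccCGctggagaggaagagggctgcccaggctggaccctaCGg
Scn2b: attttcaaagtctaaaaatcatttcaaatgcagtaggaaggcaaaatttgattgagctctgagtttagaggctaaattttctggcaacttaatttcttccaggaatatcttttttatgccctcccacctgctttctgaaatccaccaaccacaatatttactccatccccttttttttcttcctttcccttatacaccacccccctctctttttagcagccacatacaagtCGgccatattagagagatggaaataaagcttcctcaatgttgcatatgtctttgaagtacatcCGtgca
Scn9a: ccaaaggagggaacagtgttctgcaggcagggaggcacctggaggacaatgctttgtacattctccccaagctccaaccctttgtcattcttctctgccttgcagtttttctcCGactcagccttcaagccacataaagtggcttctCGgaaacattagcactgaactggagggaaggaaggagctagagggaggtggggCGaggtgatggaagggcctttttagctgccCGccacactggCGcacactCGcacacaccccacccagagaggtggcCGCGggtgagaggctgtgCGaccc
The Scn4b window held 26 CG dinucleotides at 66.3% GC, and 16.9% of all 32851 windows of that length held at least as many. The Scn2b window held 2 at 38.3% GC, and the Scn9a window 9 at 57.3% GC. The median over all windows was 7 CG dinucleotides and 52.7% GC. Windows were found for 6 of the 8 members, and Scn2a1 and Scn8a had more than 1. The letters CCGGAAG, a core bound by ETS factors such as Elk-1, were searched on both strands and were in none of the members' windows, against 8.86% of all windows. Of the other motifs searched on both strands (the Sp1 box GGGCGG, the TATA box TATAAA, the CCAAT box, the short form TGACG and the long form TGACGTCA of the cAMP-responsive element, the Egr site GCGGGGGCG and the AP-1 site TGANTCA, where the long form contains the short one), the Scn4b window held 1 match to CCAAT, on the minus strand at position -67 from the start, and 37.4% of all windows held one. The Scn2b and Scn9a windows held no match to any of them.

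The authors' deposited tables give 1 pooled FPKM value per group and gene (fragments per kilobase of transcript, scaled to the number mapped), their log2 fold change and their test, and no value per library. The spread between libraries and the depth are therefore unknown here, and the words rose and fell are kept for genes with a deposited q below 0.05. The tables were normalized separately, so levels are compared within a table unless stated. Each of 11 projection neuron markers had an FPKM of at least 17.6 in the R6/1, CHL2 and Elk-1-AAV groups and of at least 18.0 in the groups they were set against. No threshold or other tissue was set beside these levels, so they are not a check of the dissection. Elk1 stood at 30.1 FPKM in Elk-1-AAV R6/1 and 15.1 in control-AAV R6/1 (log2 fold change 1.00 with q = 0.0122 in the authors' deposited table). Markers of other tissues and of other cell types moved too. Of 6 cortical excitatory neuron markers 4 fell at 8 weeks (summed level 200.4 FPKM in R6/1 and 317.2 in wild type). In the 10-week genotype comparison 4 of them fell (316.2 FPKM in control-AAV R6/1 and 600.8 in control-AAV wild type). Of 4 choroid plexus markers 3 fell at 8 weeks (575.4 FPKM in R6/1 and 1490.3 in wild type) and 3 rose in the 10-week genotype comparison (1568 in control-AAV R6/1 and 339.6 in control-AAV wild type). In CHL2, 2 of 6 oligodendrocyte markers fell (3011 FPKM in CHL2 and 4416 in wild type). Under Elk-1 AAV, 2 of 7 microglia markers rose (332.95 FPKM in Elk-1-AAV R6/1 and 205.7 in control-AAV R6/1), as did 1 of 4 choroid plexus markers (2282 in Elk-1-AAV R6/1 and 1606 in control-AAV R6/1). The part of all these markers in the sodium channel values was not tested.

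**Figure D1:**
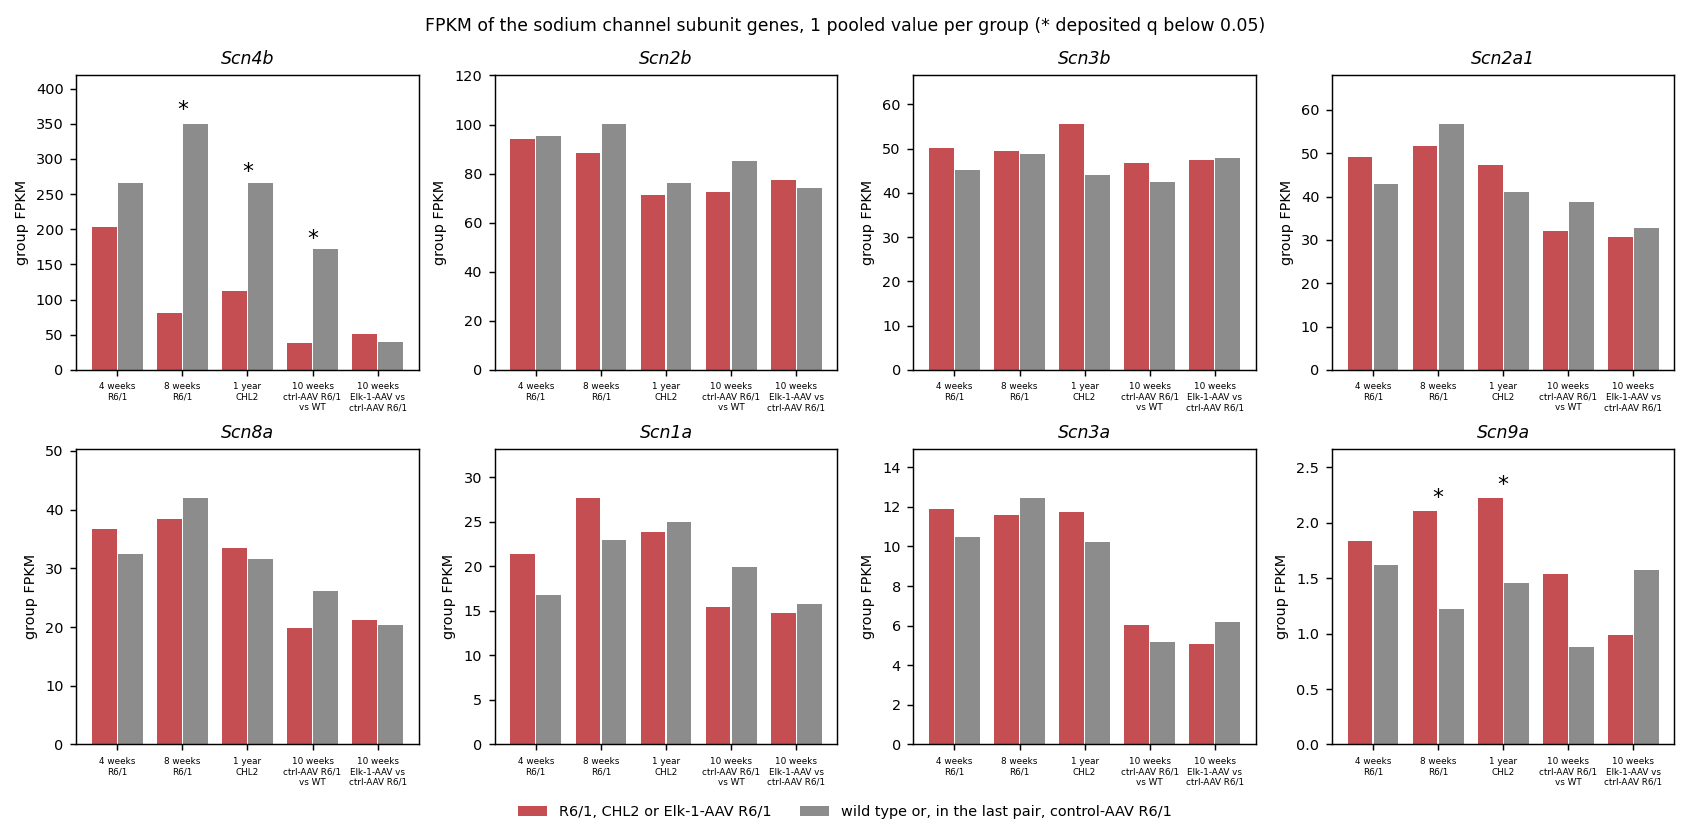
Group FPKM (vertical axes, linear from 0) of the 8 members, 1 panel per gene, with R6/1, CHL2 or Elk-1-AAV R6/1 in red and wild type or, in the last pair, control-AAV R6/1 in grey. Each bar is 1 pooled value with no error, and stars mark a deposited q below 0.05: Scn4b in 3 pairs and Scn9a in 2.

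Scn4b was the member with the greatest loss. At 8 weeks it had 80.4 FPKM in R6/1 striatum, against 350.04 FPKM in wild type, and was called lower (log2 fold change -2.12 with q = 0.00160 in the authors' deposited table). The R6/1 value was 23.0% of the wild-type value. At 1 year it had 111.6 FPKM in CHL2 and 265.3 in wild type, and was again called lower (-1.25, q = 0.00303 in the authors' deposited table), at 42.1% of wild type. At 10 weeks it had 38.6 FPKM in R6/1 and 171.7 in wild type (-2.15, q = 0.00312 in the authors' deposited table), or 22.5%. At 4 weeks the values were 203.2 FPKM in R6/1 and 265.7 in wild type, at 76.5% of wild type, and did not pass (-0.39, p = 0.00885, q = 0.438 in the authors' deposited table). Whether the 4-week and 8-week effects differ was not tested.

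Where mean FPKM was 1 or more, Scn4b ranked 10 of 13120 from the most lowered at 8 weeks, 19 of 13363 in CHL2, 36 of 12875 in the 10-week genotype comparison and 211 of 13226 at 4 weeks, by log2 fold change in the authors' deposited tables. By level, it ranked 774 in R6/1 and 102 in wild type at 8 weeks. In CHL2 it ranked 534, against 160 in wild type. Of the 11 projection neuron markers, 10 fell at 8 weeks (median log2 fold change -1.30), 10 in CHL2 (-0.71) and 8 with control AAV at 10 weeks (-0.94), and 2 fell at 4 weeks (-0.21), all in the authors' deposited tables. The markers' summed level was 1249.6 FPKM in R6/1 and 3065 in wild type at 8 weeks, and 2152 in R6/1 and 2723 in wild type at 4 weeks. It was 1554 in CHL2 and 2920.2 in wild type, and 1159 in control-AAV R6/1 and 2409.6 in control-AAV wild type. The fold change of Scn4b was lower than that of each of the 11 markers at 8 weeks, in CHL2 and in the 10-week genotype pair, where Penk, the enkephalin precursor, came next with -1.85, -1.23 and -1.58 in the authors' deposited tables. At 4 weeks 2 of the 11 were lower than Scn4b. In RNA of whole striatum, fewer projection neurons and less Scn4b RNA per neuron cannot be told apart.

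The other beta members did not share the size of this loss. Scn2b, whose product is linked to alpha subunits by a disulfide bond, had 88.3 FPKM in R6/1 and 100.3 in wild type at 8 weeks (log2 fold change -0.18 with q = 0.682 in the authors' deposited table). It had 71.1 FPKM in CHL2 and 76.2 in wild type (-0.10, q = 0.832 in the authors' deposited table), and 72.6 in control-AAV R6/1 and 85.1 in control-AAV wild type (-0.23, q = 0.826). At 4 weeks it had 94.3 FPKM in R6/1 and 95.3 in wild type. Its values were lower than wild type in all 4 genotype comparisons and passed in none of them. The table lists Scn2b over 56425 bases, while RefSeq gives the gene a span of 12195 bases on GRCm38, so its row may hold reads from beyond that gene.

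Scn3b, whose product associates with alpha subunits without a covalent bond, had higher values in each model. It had 55.6 FPKM in CHL2 and 44.2 in wild type (0.33, p = 0.00345, q = 0.0768 in the authors' deposited table). It had 49.4 FPKM in R6/1 and 48.9 in wild type at 8 weeks, 50.1 in R6/1 and 45.1 in wild type at 4 weeks, and 46.8 in control-AAV R6/1 and 42.4 in control-AAV wild type (q from 0.960 to 0.999 in the authors' deposited tables). Among the members it had the steadiest level across the 4 wild-type groups, with a ratio of 1.15 between the highest and the lowest, although these come from separately normalized tables.

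**Figure D2:**
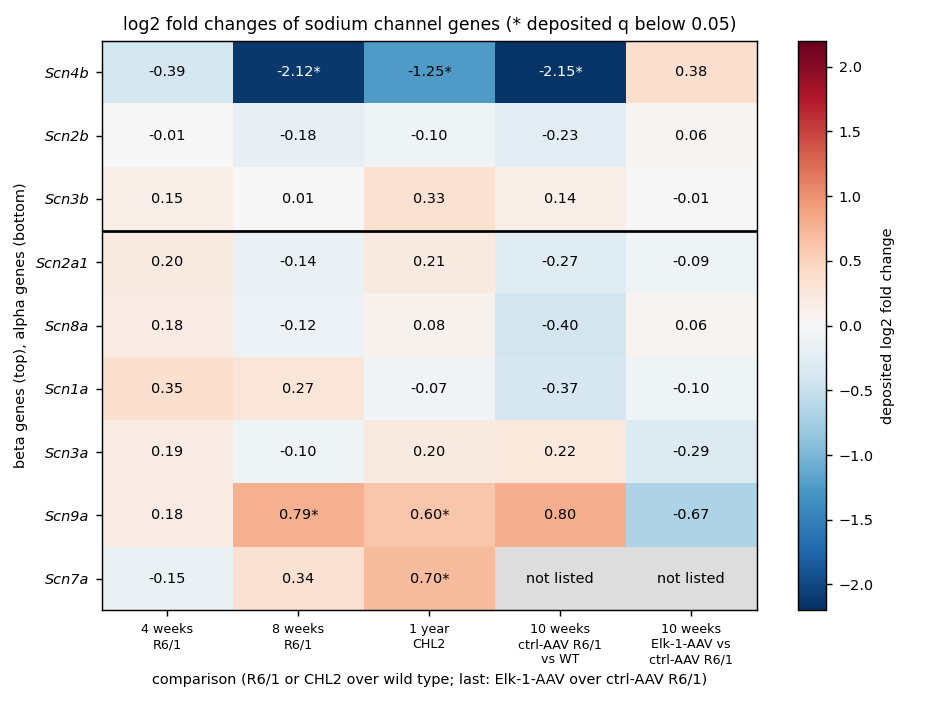
Log2 fold changes from the authors' deposited tables (colour and printed value) for 9 sodium channel genes (rows, beta genes above the line) in 5 comparisons (columns), with a star where q was below 0.05. Scn4b is the darkest row, and Scn9a is positive in the 4 genotype comparisons and negative under Elk-1 AAV.

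The 4 abundant alpha subunit genes passed in no comparison. Scn2a1 was the most abundant in every group, followed by Scn8a, Scn1a and Scn3a, and Scn9a was the lowest. Scn2a1 had 51.6 FPKM in R6/1 and 56.8 in wild type at 8 weeks, 47.2 in CHL2 and 41.0 in wild type, and 49.2 in R6/1 and 42.9 in wild type at 4 weeks. In the 10-week genotype comparison it had 32.1 FPKM in R6/1 and 38.8 in wild type. These differences went both ways, with log2 fold changes of -0.14, 0.21, 0.20 and -0.27 in the authors' deposited tables.

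Scn8a, which carries much of the persistent and resurgent current in several neuron types, had 38.5 FPKM in R6/1 and 41.9 in wild type at 8 weeks. It had 33.4 FPKM in CHL2 and 31.6 in wild type, and 36.8 in R6/1 and 32.4 in wild type at 4 weeks. Under control AAV at 10 weeks it had 19.9 FPKM in R6/1 and 26.2 in wild type, its greatest difference, with p = 0.0324 and q = 0.372 in the authors' deposited table. Of 7 general neuron markers 2 fell in that pair, where their sum was 2492 FPKM in control-AAV R6/1 and 3618 in control-AAV wild type, and their part in the values of Scn8a was not tested. Scn3a had 11.6 FPKM in R6/1 and 12.4 in wild type at 8 weeks, 11.7 in CHL2 and 10.2 in wild type, 11.9 in R6/1 and 10.5 in wild type at 4 weeks, and 6.06 in control-AAV R6/1 and 5.18 in control-AAV wild type. Its q was between 0.470 and 0.999 in the authors' deposited tables.

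Scn1a came closest to the threshold among these 4. At 4 weeks it had 21.4 FPKM in R6/1 and 16.8 in wild type (log2 fold change 0.35, p = 0.0022, q = 0.219 in the authors' deposited table). At 8 weeks it had 27.6 FPKM in R6/1 and 22.9 in wild type (0.27, q = 0.269 in the authors' deposited table). In CHL2 the values were 23.8 FPKM against 24.9 in wild type, and in the 10-week genotype comparison 15.4 in R6/1 and 19.9 in wild type (-0.37, q = 0.483 in the authors' deposited table). Its direction was thus not the same in all models. Of 5 fast-spiking interneuron markers 0 were called by the authors' Cuffdiff test in any comparison, and 1 (Pvalb) had an unadjusted p below 0.05 in CHL2 and under Elk-1 AAV. Pvalb, the calcium-binding protein of these cells, had 30.6 FPKM in R6/1 and 26.1 in wild type at 4 weeks. The values at 8 weeks were 35.2 FPKM in R6/1 and 31.5 in wild type. Its unadjusted p was not below 0.05 at either of these ages, and its values in CHL2 and under Elk-1 AAV are not reported here. The summed level of the 5 markers was also higher in R6/1 at 4 and 8 weeks. It was lower in CHL2 (125.8 FPKM against 140.6 in wild type) and in control-AAV R6/1 (180.6 against 193.9 in control-AAV wild type). Under Elk-1 AAV it was 154.7 FPKM, against 184.8 in control-AAV R6/1. The part of these cells in the values of Scn1a was not tested.

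Scn9a was the member that rose. At 8 weeks it had 2.11 FPKM in R6/1, against 1.22 FPKM in wild type (log2 fold change 0.79 with q = 0.00430 in the authors' deposited table). In CHL2 it had 2.22 FPKM and in wild type 1.46 (0.60, q = 0.0111 in the authors' deposited table). At 10 weeks with control AAV it had 1.54 FPKM in R6/1 and 0.881 in wild type, a difference of like size that did not pass (0.80, p = 0.0313, q = 0.367 in the authors' deposited table). At 4 weeks it had 1.84 FPKM in R6/1 and 1.62 in wild type (0.18, q = 0.999 in the authors' deposited table). At this low level the size depended on the scale: with 1 added to FPKM, the log2 fold change of Scn9a was 0.48 at 8 weeks, 0.39 in CHL2 and 0.43 at 10 weeks. It stayed the lowest member in every group, at no more than 2.22 FPKM, between 0.904% and 2.05% of the summed alpha FPKM.

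Scn9a shares its listed position with the gene model Gm13629, so their reads may not be told apart, and the listed span is longer than the RefSeq gene. Gm13629 had 3.68 FPKM in R6/1 and 2.43 in wild type at 8 weeks (q = 0.744), and 3.14 in CHL2 and 3.90 in wild type (q = 0.819), and was called in no comparison in the authors' deposited tables. Thalamus and hypothalamus lie near the striatum, and the median fold change of their markers had the sign of Scn9a in 4 of the 5 comparisons. Of 9 listed markers 2 rose at 8 weeks, of 10 listed 6 rose in CHL2, of 9 listed 7 rose with control AAV at 10 weeks, and none was at 0 in any group. Their summed level was 46.2 FPKM in R6/1 and 28.8 in wild type at 8 weeks, 209.9 in CHL2 and 95.04 in wild type, and 485.6 in control-AAV R6/1 and 82.1 in control-AAV wild type. At 4 weeks the sum was 61.1 FPKM in R6/1 and 127.05 in wild type, and 3 of 9 were called lower. Scn9a did not pass there and had the opposite sign. Slc17a6, a glutamate transporter of these regions, had 12.9 FPKM in R6/1 and 7.98 in wild type at 8 weeks, and 13.7 in CHL2 and 8.64 in wild type, and rose in both in the authors' deposited tables. The part of neighbouring tissue in the rise of Scn9a was not tested.

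Scn7a, a sodium-sensing channel gene that lies next to Scn9a and is not among the 8 members, rose in CHL2. It had 1.16 FPKM in CHL2 and 0.712 in wild type (0.70, q = 0.0275 in the authors' deposited table), and 0.929 in R6/1 and 0.732 in wild type at 8 weeks (q = 0.664). Nalcn, the sodium leak channel, was called in no comparison. Scn4a, Scn10a and Scn11a had no row in the tables used here.

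**Figure D3:**
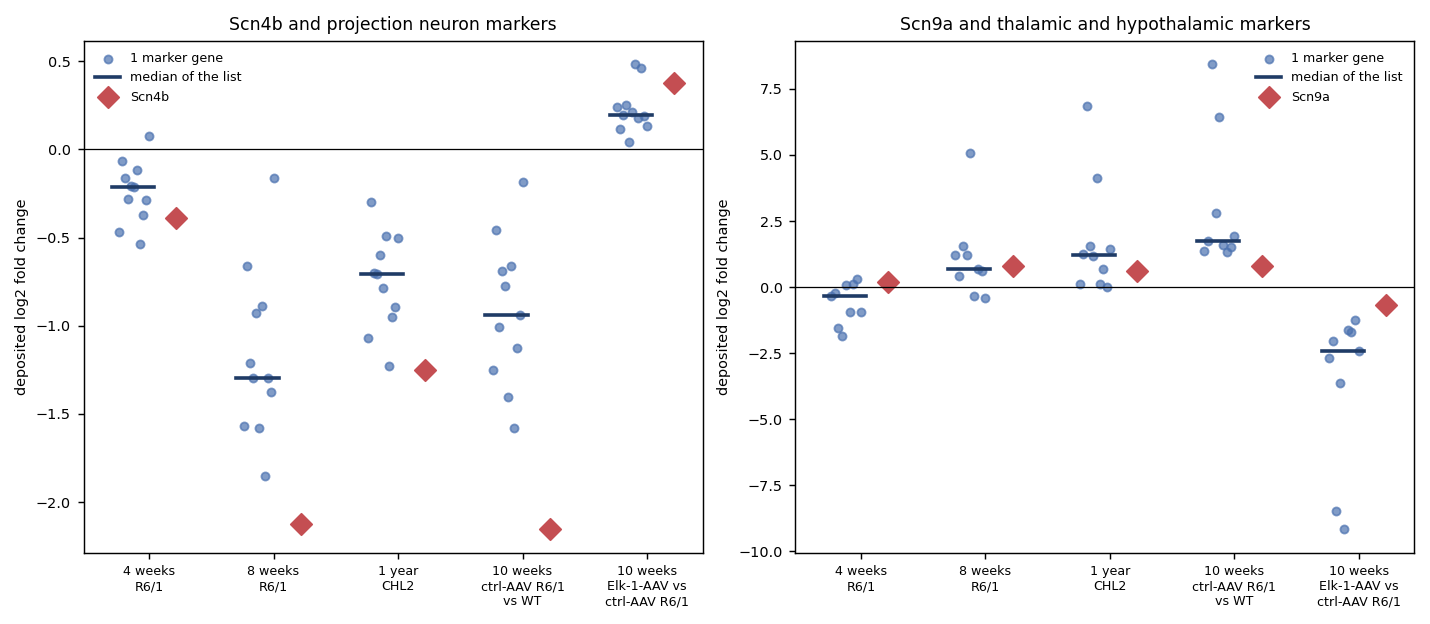
Deposited log2 fold changes (vertical axes) of Scn4b beside 11 projection neuron markers (left) and of Scn9a beside the listed thalamic and hypothalamic markers (right) in the 5 comparisons. Dots are marker genes, bars their medians and diamonds the channel genes; Scn4b lies below every marker at 8 weeks, in CHL2 and in the 10-week genotype pair.

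Counted over the members, 2 of 8 were called at 8 weeks (Scn9a higher and Scn4b lower), where 6.12% of all 14320 genes were called in the authors' deposited table, 0.789% higher and 5.34% lower. In CHL2 the same 2 genes were called in the same directions, against 3.65% of 14402 genes, 1.67% higher and 1.97% lower. In the 10-week genotype comparison 1 of 8 was called (Scn4b), against 3.24% of 12980 genes, 0.724% higher and 2.51% lower. At 4 weeks 0 of 8 were called by the authors' Cuffdiff test, against 0.468% of 14539 genes (0.275% higher and 0.193% lower), and 2 of 8 had an unadjusted p below 0.05, beside 780 of the 14539 genes. Since the members were chosen with these values known, nothing is read from these counts. The median log2 fold change of the 8 members was 0.18 at 4 weeks, -0.11 at 8 weeks, 0.14 in CHL2 and -0.25 between the control-AAV groups, beside medians over all genes of 0.0014, 0.0061, 0.0026 and 0.016 in the authors' deposited tables.

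Beta and alpha members were set against each other by the medians of their deposited log2 fold changes. At 4 weeks the median was -0.015 for the 3 beta and 0.19 for the 5 alpha members, a difference of -0.20. At 8 weeks the medians were -0.18 for beta and -0.10 for alpha members, a difference of -0.083, and in CHL2 -0.10 for beta and 0.20 for alpha members, a difference of -0.30. Under control AAV at 10 weeks they were -0.23 for beta and -0.27 for alpha members, a difference of 0.045. A median of 3 values does not carry the size of the Scn4b change. Without Scn4b the difference was -0.12 at 4 weeks, 0.016 at 8 weeks, -0.084 in CHL2 and 0.23 in the 10-week genotype comparison. Relative to genes of like transcript length it was -0.073 at 4 weeks and -0.17 in CHL2. With means in place of medians, Scn4b weighs more. The differences were then -0.30 at 4 weeks, -0.90 at 8 weeks, -0.54 in CHL2 and -0.74 with control AAV at 10 weeks. The 4-week difference also holds the positive values of all 5 alpha members.

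The make-up of the beta members' pool differed with it. Summed over Scn2b, Scn3b and Scn4b, these genes had 218.03 FPKM in R6/1 and 499.3 in wild type at 8 weeks, and Scn4b made up 36.9% of the sum in R6/1 and 70.1% in wild type. In CHL2 the sum was 238.4 FPKM with 46.8% from Scn4b, and in wild type 385.7 FPKM with 68.8%. In control-AAV R6/1 it was 157.9 FPKM with 24.4% from Scn4b, and in control-AAV wild type 299.2 FPKM with 57.4%. At 4 weeks it was 347.6 FPKM with 58.5% in R6/1, and 406.1 FPKM with 65.4% in wild type. The difference of Scn4b came to 95.9% of the difference in this sum at 8 weeks, 104% in CHL2 and 94.3% in the 10-week genotype pair, where a share over 100% means that the other members together had higher values. Scn2b was the most abundant of the 3 in R6/1 at 8 weeks, with 40.5% of the sum, and in control-AAV R6/1, with 45.9%, while Scn4b was in CHL2 and in the wild types of all 4 tables.

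The alpha sum differed less. It was 131.3 FPKM in R6/1 and 135.2 in wild type at 8 weeks, 118.4 in CHL2 and 109.2 in wild type, 121.1 in R6/1 and 104.2 in wild type at 4 weeks, and 74.95 in control-AAV R6/1 and 90.96 in control-AAV wild type. The beta to alpha ratio of summed FPKM was 1.66 in R6/1 and 3.69 in wild type at 8 weeks, 2.01 in CHL2 and 3.53 in wild type, 2.87 in R6/1 and 3.90 in wild type at 4 weeks, and 2.11 in control-AAV R6/1 and 3.29 in control-AAV wild type. It was thus lower in the model in each of the 4 pairs, each a comparison of 2 pooled values with no error. Scn4b made up most of the beta difference in each pair, and the ratio was not computed without that gene. At 4 weeks and in CHL2 a higher alpha sum in the model also lowers the ratio, and those tables held the trend over transcript length given below. Within the alpha sum the share of Scn2a1 lay between 37.5% and 42.8% in all groups.

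**Figure D4:**
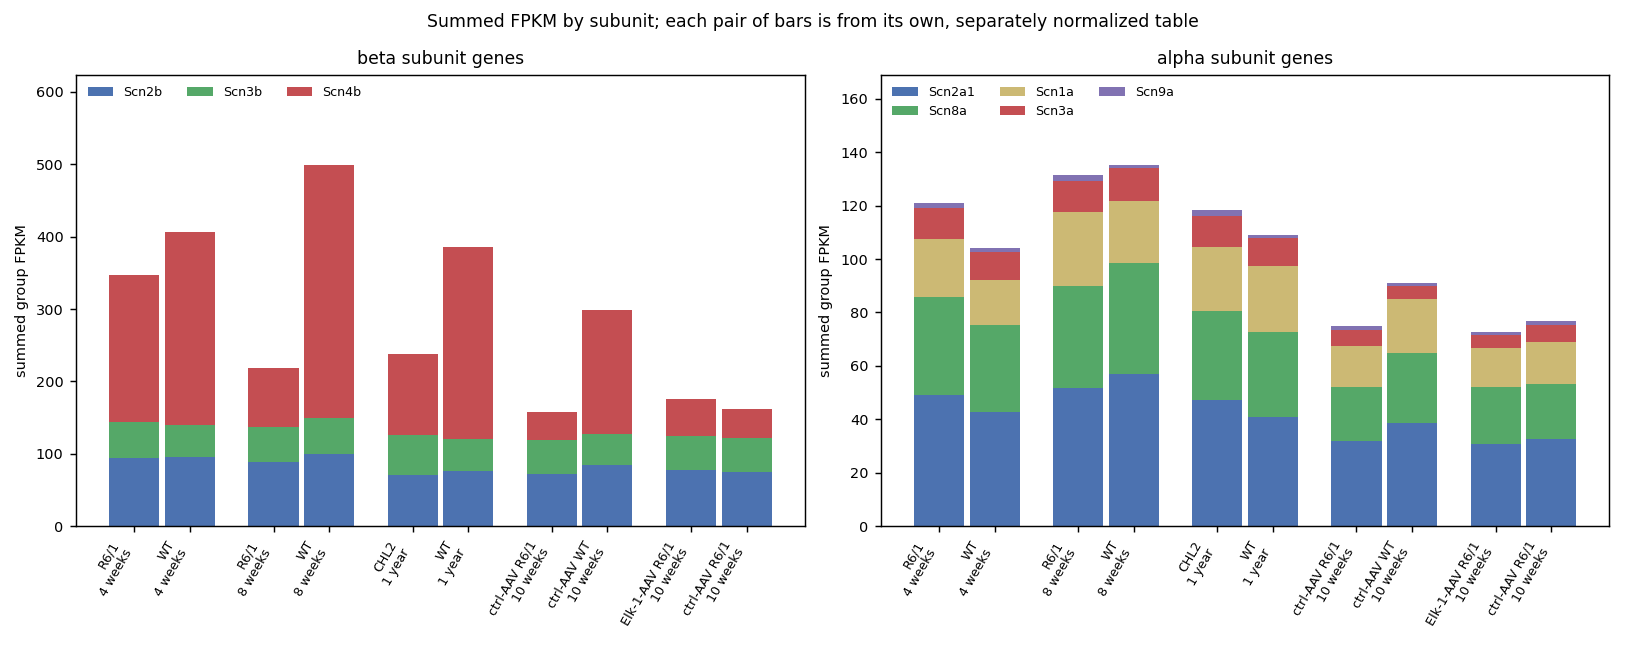
Summed group FPKM (vertical axes) of the 3 beta members (left) and 5 alpha members (right), stacked by gene, with each model beside the group it was compared with. The Scn4b segment makes up 36.9% of the beta sum in R6/1 and 70.1% in wild type at 8 weeks, and the Scn2a1 segment makes up 37.5% to 42.8% of each alpha stack.

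At 4 weeks all 5 alpha members had positive log2 fold changes, and in CHL2 4 were positive and Scn1a was at -0.067. Both tables held a trend over transcript length. Across genes, the deposited log2 fold change correlated with the longest annotated transcript (Spearman 0.45 over 14351 genes at 4 weeks and 0.38 over 14230 in CHL2). The correlation was -0.11 at 8 weeks, -0.050 between the control-AAV groups and -0.17 in the Elk-1 table. The genes of one table share its libraries, and they are not independent replicates. All 5 alpha members have transcripts of 8386 to 11436 bases and fall among the longest of 20 equal bins, whose median was 0.16 at 4 weeks and 0.17 in CHL2. The beta members have transcripts of 4150 to 4982 bases. Relative to genes of like length, Scn2a1, Scn3a, Scn8a and Scn9a stood at 0.026 to 0.042 at 4 weeks and Scn1a at 0.19. In CHL2, Scn2a1 stood at 0.039, Scn3a at 0.035, Scn8a at -0.086 and Scn1a at -0.23. On the same scale Scn4b stood at -0.43 at 4 weeks, -2.11 at 8 weeks and -1.32 in CHL2, and Scn9a at 0.82 at 8 weeks and 0.44 in CHL2.

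**Figure D5:**
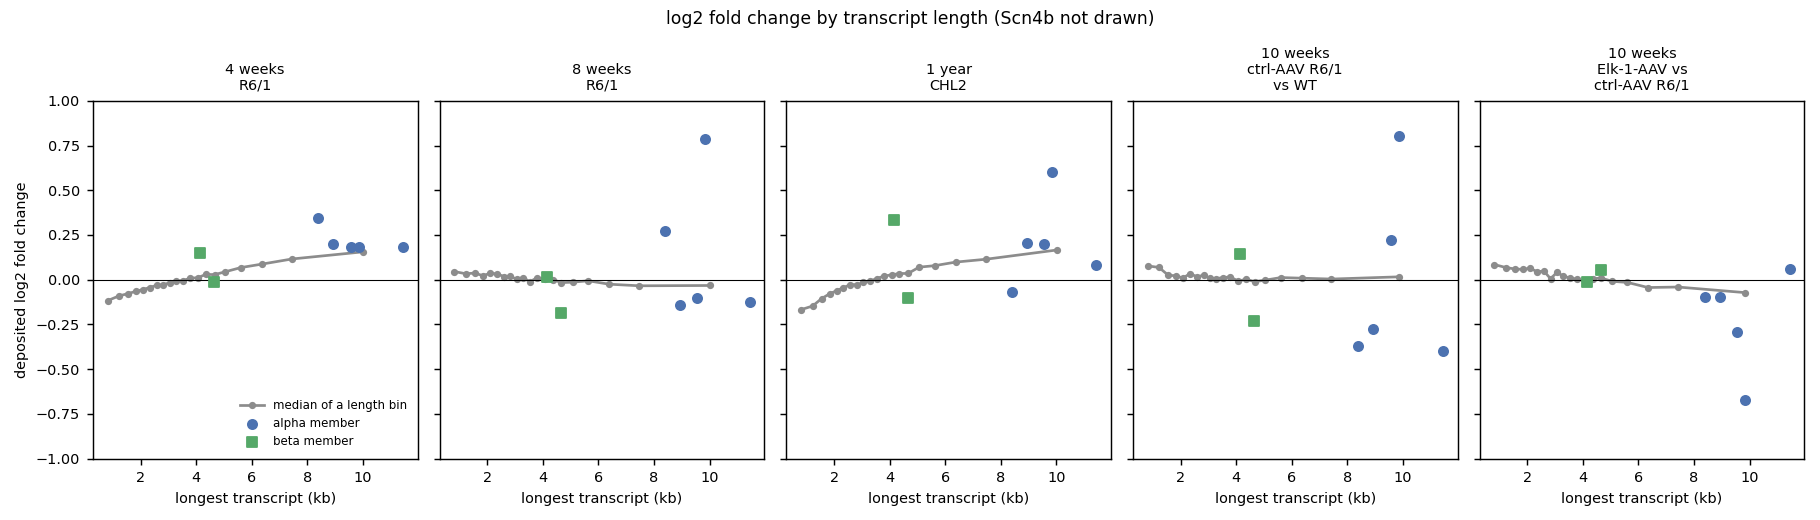
Deposited log2 fold change (vertical axis) against the longest annotated transcript in kilobases for the alpha members (circles) and for Scn2b and Scn3b (squares), with grey points for the medians of 20 bins of all genes by length, 1 panel per comparison. The grey line rises to 0.16 at 4 weeks and 0.17 in CHL2, and Scn9a stands above it in CHL2 at 0.60.

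All 19 genes of a list of channel partners were in each table, covering anchoring proteins, auxiliary factors, ligases and axonal adhesion molecules. At 4 weeks 2 of 19 rose, Tnr, an extracellular matrix protein that binds beta subunits (23.1 FPKM in R6/1 and 17.0 in wild type, log2 fold change 0.44 with q = 0.0145 in the authors' deposited table), and Kcnq3, a potassium channel of the axon initial segment (21.6 FPKM in R6/1 and 16.0 in wild type, 0.43, q = 0.0260 in the authors' deposited table). At 8 weeks 2 of 19 fell, Kcnq3 (21.9 FPKM in R6/1 and 29.9 in wild type, -0.45, q = 0.0129 in the authors' deposited table) and Nedd4l, a ubiquitin ligase that acts on sodium channels (25.2 FPKM in R6/1 and 34.1 in wild type, -0.44, q = 0.0121 in the authors' deposited table). In CHL2 Tnr rose (18.1 FPKM in CHL2 and 13.7 in wild type, 0.41, q = 0.0262 in the authors' deposited table), and 18 of 19 were not called. At 10 weeks with control AAV 0 of 19 were called by the authors' Cuffdiff test, and 2 of 19 had an unadjusted p below 0.05. Over all genes, that test called 0.275% higher at 4 weeks, 5.34% lower at 8 weeks and 1.67% higher in CHL2. In the 10-week genotype comparison it called 3.24% in either direction. The list medians were 0.12 at 4 weeks, -0.077 at 8 weeks, 0.064 in CHL2 and -0.14 in the 10-week genotype comparison. The partners were not set against genes of like transcript length, although the 4-week and CHL2 tables held a trend over length.

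No listed neighbour of Scn4b was called with it. Within 500 kb of Scn4b, 15 genes were listed in the 8-week and CHL2 tables and 14 in the 10-week genotype table, and the authors' Cuffdiff test called 0 of them in any of these. Over all genes that test called 6.12% at 8 weeks, 3.65% in CHL2 and 3.24% in the 10-week genotype table. Nothing is read from a count of 0 among so few genes. At an unadjusted p below 0.05 there were 2 at 8 weeks, 4 in CHL2 and 2 in the 10-week genotype table. Over all genes there were 2043 of 14320, 1911 of 14402 and 1386 of 12980 in the same order. The median log2 fold change of these neighbours was -0.12 at 8 weeks, 0.064 in CHL2 and -0.054 with control AAV at 10 weeks in the authors' deposited tables. Around Scn9a, 5 genes were listed at 8 weeks and 6 in CHL2, of which Scn7a alone was called, in CHL2. Around Scn8a, 3 of 21 neighbours fell at 8 weeks: the activin receptor-like kinase gene Acvrl1 (-1.20), the activity-regulated receptor Nr4a1 (-1.17) and the scaffold gene Grasp (-0.74), each at q = 0.00160 in the authors' deposited table. Acvrl1 also fell in CHL2 (-0.50, q = 0.00750), and Acvrl1 (-2.08) and Nr4a1 (-1.45) fell in the 10-week genotype comparison, both at q = 0.00312 in the authors' deposited tables, while Scn8a itself passed in none of these. The share of all genes called lower was 5.34% at 8 weeks, 1.97% in CHL2 and 2.51% in the 10-week genotype comparison.

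In R6/1 mice at 10 weeks, Elk-1 AAV was compared with control AAV to ask what added Elk-1 does to these genes, and 0 of the 8 members passed. The authors' Cuffdiff test called 0.575% of 12701 genes in that table (0.299% higher and 0.276% lower), and 2 of the 8 members had an unadjusted p below 0.05, beside 624 of the 12701 genes. Scn4b had 51.2 FPKM in Elk-1-AAV R6/1 and 39.5 in control-AAV R6/1 (log2 fold change 0.38, p = 0.0263, q = 0.841 in the authors' deposited table). Scn9a had 0.988 FPKM in Elk-1-AAV R6/1 and 1.57 in control-AAV R6/1 (-0.67, p = 0.0476, q = 0.992 in the authors' deposited table). The other 6 members had log2 fold changes from -0.29 (Scn3a) to 0.060 (Scn8a) with q = 0.999 in the authors' deposited table.

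Apart from Scn9a, the alpha genes differed less in this pair, with Scn3a next at -0.29. Scn2a1 had 30.7 FPKM in Elk-1-AAV R6/1 and 32.8 in control-AAV R6/1, Scn8a 21.2 in Elk-1-AAV R6/1 and 20.4 in control-AAV R6/1, and Scn1a 14.7 in Elk-1-AAV R6/1 and 15.7 in control-AAV R6/1. Scn3a had 5.05 FPKM in Elk-1-AAV R6/1 and 6.20 in control-AAV R6/1. Of the other beta members, Scn2b had 77.2 FPKM in Elk-1-AAV R6/1 and 74.3 in control-AAV R6/1, and Scn3b 47.5 in Elk-1-AAV R6/1 and 47.9 in control-AAV R6/1. The median log2 fold change was 0.057 for the beta and -0.097 for the alpha members, a difference of 0.15, and over all genes it was 0.014 in the authors' deposited table. Relative to genes of like transcript length the difference was 0.072. The 3 beta members summed to 175.9 FPKM in Elk-1-AAV R6/1 and 161.7 in control-AAV R6/1, and Scn4b made up 29.1% of the sum in Elk-1-AAV R6/1 and 24.4% in control-AAV R6/1. The difference of Scn4b came to 82.3% of the difference in that sum. Of the 19 channel partners 0 were called by the authors' Cuffdiff test, 0 had an unadjusted p below 0.05, and the median log2 fold change was -0.033.

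The control-AAV R6/1 libraries serve in both 10-week tables, and the 2 comparisons are therefore not independent of each other. The members' values for this pool in the Elk-1 table were 1.02 times those in the genotype table, as for all genes. Side by side, the authors' deposited tables put Scn4b at -2.15 in the genotype comparison and 0.38 with Elk-1, and Scn9a at 0.80 in the genotype comparison and -0.67 with Elk-1. The shared pool is the tested group in the genotype comparison and the reference with Elk-1. Opposite signs can therefore arise from that pool alone, and a reversal by Elk-1 was not tested. The thalamic and hypothalamic markers were summed at 48.6 FPKM in Elk-1-AAV R6/1 and 497.3 in control-AAV R6/1, with 6 of 9 called lower. Of the projection neuron markers 0 of 11 were called by the authors' Cuffdiff test and 1 had an unadjusted p below 0.05, with a sum of 1428 FPKM in Elk-1-AAV R6/1 and 1187 in control-AAV R6/1. The part of these markers in the values of Scn4b and Scn9a was not tested.

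The genes most like Scn4b were found by the root mean square difference of their 5 deposited log2 fold changes among 12323 genes whose mean FPKM reached 1 in every table. The 5 nearest were Penk (0.30 log2 units), the potassium channel gene Kcnh4 (0.35), Cpne9 (0.39), Ddit4l (0.42) and Lrrc10b (0.43). Penk had -0.54 at 4 weeks, -1.85 at 8 weeks, -1.23 in CHL2, -1.58 in the 10-week genotype pair and 0.18 under Elk-1 AAV, where Scn4b had -0.39, -2.12, -1.25, -2.15 and 0.38. Kcnh4 had -0.37, -1.71, -0.70, -1.76 and 0.35 in the same order, in the authors' deposited tables. The 3 nearest to Scn9a were Rab9b (0.14 log2 units), Gprasp2 (0.14) and Ntng1 (0.14). The last 2 of the 5 comparisons share a pool, so the measure counts it in both.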

How the data were processed

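Total RNA of striatum was extracted with Trizol and made into TruSeq libraries, per the labels' protocols. Per the submitters' processing notes, the tools were Cuffdiff, Cufflinks, Bowtie and TopHat, with mm9 as the genome. Nothing on versions, annotation or strandedness was given in the sources used here. There were 5 tables without headers from the authors, each for a single comparison. Each holds 2 pooled group FPKM values, the deposited log2 fold change, a test statistic (a deposited score), a p-value and a q-value as deposited, identified from the rows' group names and the values. The deposited q equals a Benjamini-Hochberg adjustment of p over the table, and the lowest p is 5e-05. Depth per library is unknown, so no interval or SD could be given.

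With no value per library, the planned limma fits could not be made, and calls are the authors' deposited q below 0.05. Python 3.11.15 with pandas 2.3.3 and numpy 2.4.6 read the members by symbol, in all 8 cases found in each table. The members, gene lists and alternatives were chosen with earlier results of these data known. Named genes are all members, called genes of the family and partner lists (some family genes are not reported here) and within 500 kb of a member, the nearest genes by fold change, and, of the marker lists, the genes a sentence needs. Elk1 is named as a check of the vector. Transcript lengths are the longest per symbol in GENCODE M21 (98.8% to 99.0% of rows matched), used as lengths only; the length adjustment was tested on simulated data. Promoter windows are from RefSeq on GRCm38.p6. P-values measure the spread between the libraries, which may be technical.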

Additional observations from a re-analysis of the deposited data

How the results depend on the processing

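The log2 fold changes of the members kept their sign with 1 or 0.1 added to FPKM and with the table's median subtracted (0 of 40 values turned), and 1 of 40 turned relative to genes of like transcript length. That was Scn8a in CHL2, which was not called. With 1 added, 4 of 40 moved by more than 0.1 and 36 did not; all 4 were of Scn9a, at 0.48 for R6/1 at 8 weeks, 0.39 for CHL2, 0.43 for the 10-week genotype pair and -0.37 for Elk-1 AAV. With the adjustment restricted to genes whose mean FPKM reached 1, the number of called members was unchanged in all 5 comparisons. At q below 0.10 it was 3 in CHL2 in place of 2, and unchanged in the other 4. The added member was Scn3b, with a higher value in CHL2 (q = 0.0768 in the authors' deposited table). At q below 0.01 the number was 1 in CHL2, since Scn9a no longer passed, and unchanged in the other 4.

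The difference of beta and alpha medians was -0.073 at 4 weeks and -0.17 in CHL2 relative to genes of like length. Means in place of medians gave -0.30 for R6/1 at 4 weeks, -0.90 for R6/1 at 8 weeks, -0.54 for CHL2, -0.74 for the 10-week genotype pair and 0.36 for Elk-1 AAV. Without Scn4b it was -0.084 in CHL2 and 0.23 between the control-AAV groups.

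No paired analysis was possible because the tables hold 1 pooled value per group, so a replicate block could not be fitted. For the same reason leaving out each replicate was not run, and whether 1 library carries a value is unknown. The low level of Scn9a limits its precision by an amount these values do not show.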

Other observations

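Across the wild-type groups, whose tables were normalized separately, Scn4b had 265.7 FPKM at 4 weeks, 350.04 at 8 weeks, 171.7 at 10 weeks with control AAV and 265.3 at 1 year. Scn1a had 16.8 FPKM at 4 weeks, 22.9 at 8 weeks, 19.9 at 10 weeks with control AAV and 24.9 at 1 year. Scn3a had 10.5, 12.4, 5.18 and 10.2 FPKM in the same order. The control-AAV wild type had the lowest value of the wild-type groups for 6 of the 8 members, all but Scn1a and Scn2b. How many of all genes had their lowest value there was not counted, so this is not read as a trait of the members. Age, vector and table differ together between these groups and cannot be told apart. Pvalb had 108.3 FPKM in control-AAV wild type, against 26.1 to 55.8 FPKM in the other wild types.

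Among the channel partners, Kcnq3 had 4.57 FPKM in control-AAV wild type, against 16.0 to 29.9 FPKM in the other wild types, and Tnr had 4.76 FPKM, against 13.7 to 22.4 FPKM.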
